A study of Penicillium oxalicum with 18 samples.

Results

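The response of the wild-type strain (WT) of Penicillium oxalicum to a cellulose medium is described here, as the transcription level of each gene in VMMC, the cellulose medium, against that in VMMG, the glucose medium. P. oxalicum is a filamentous fungus that secretes plant cell wall degrading enzymes. The genes described are those with a mean of at least 1 FPKM (fragments per kilobase of transcript, scaled to the mapped reads of the library) over the 6 WT libraries. By this rule 8053 of the 9230 genes listed were tested, 1177 fell below it, and 186 of these were listed at 0 in all 6 libraries. The series holds 18 libraries of total RNA from mycelia, with 3 replicates of each of 3 strains in each medium. The other strains are Δfbx23, from which the F-box protein gene fbx23 was deleted, and Refbx23, the strain made by putting fbx23 back into Δfbx23.

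Mycelia of all strains were precultured in glucose medium for 24 h at 30 °C and then transferred. According to the labels, the cellulose cultures held 1% bran and 1% microcrystalline cellulose and the glucose cultures 2% glucose, both for 18 h. The methods give 2% cellulose and 24 h for the same step, and name Vogel's medium where the labels name a modified "Mendal's" medium. Bran carries starch, protein and hemicellulose besides cellulose, so by the labels' recipe the 2 media differ in more than glucose and cellulose. The parts of bran, of cellulose and of the absence of glucose cannot be told apart here. The study calls the WT and Δfbx23 libraries biological triplicates. Whether these were separate cultures is not given in the sources used here, so p-values measure only the spread between these libraries.

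Cellulose is broken down outside the cell. Cellobiohydrolases release cellobiose from the chain ends, endoglucanases cut within the chain, lytic polysaccharide monooxygenases (LPMOs) cleave it by oxidation, and β-glucosidases split cellobiose into glucose. Xylanases and mannanases do the same for hemicelluloses, and membrane transporters take up the sugars that are set free. In filamentous fungi these genes are known to be repressed by glucose and induced by products of the polymers. In P. oxalicum the zinc finger protein Ace1 is a repressor of cellulase genes, and the study presents Fbx23 as the F-box subunit of an SCF ubiquitin ligase that acts on Ace1.

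The 6 WT libraries fell into 2 sets by medium. Across genes, Pearson's r of log2(FPKM + 1) lay between 0.989 and 0.993 within VMMC, between 0.970 and 0.993 within VMMG, and between 0.770 and 0.795 between the media. Replicate 3 in VMMG stood apart, with 383 genes (4.76% of those tested) at least 2-fold from both other replicates, against 22 to 84 genes in the other 5 libraries. In VMMC between 8632 and 8648 genes were listed above 0, and in VMMG between 8463 and 8505. The table holds no read counts, so depth is unknown. Genes at 0 in at least 6 of the 18 libraries and never above 2 FPKM were assumed to hold mostly 1 read where detected. The most frequent ratio of their FPKM to those of replicate 1 in VMMG gave relative depths between 0.985 and 1.02, over 60 to 63 genes. The assumption was not tested.

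In VMMC, 2070 genes (25.7% of those tested) were higher and 1251 (15.5%) lower than in VMMG by 2-fold or more, with an adjusted p under 0.05 in limma on log2(FPKM + 1). All fold changes below are on this scale, which understates the change of genes with low values. A further 4732 genes were not called. The median log2 fold change over all genes tested was 0.13, and it was −0.02 after median-ratio scaling of the libraries and 0.33 after scaling them to the same FPKM sum, so the groups below are set beside this median. In 3496 genes (43.4%) every VMMC library was above every VMMG library, and in 2707 (33.6%) every one was below. Only 4 of the called genes had groups that overlapped.

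Large changes went upward more often than downward, as did called changes of any size. Of all called genes 62.3% were higher, and 55.3% or 70.3% after the 2 scalings above. A log2 fold change of at least 5 was reached by 106 genes upward and 58 downward. Among the genes called higher, 51 were listed at 0 in all 3 VMMG libraries, and among those called lower, 47 were listed at 0 in all 3 VMMC libraries. Of the genes tested, 454 had a mean of at least 1 FPKM in VMMC alone and 191 in VMMG alone. At the filter, PDE_00600 was just inside, with 2.35, 1.47 and 1.14 FPKM in VMMC against 0.07, 0 and 1.00 FPKM in VMMG. Just outside was PDE_02905, with 1.71, 1.91 and 1.28 FPKM in VMMC against 0.25, 0.44 and 0.40 FPKM in VMMG.

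**Figure D1:**
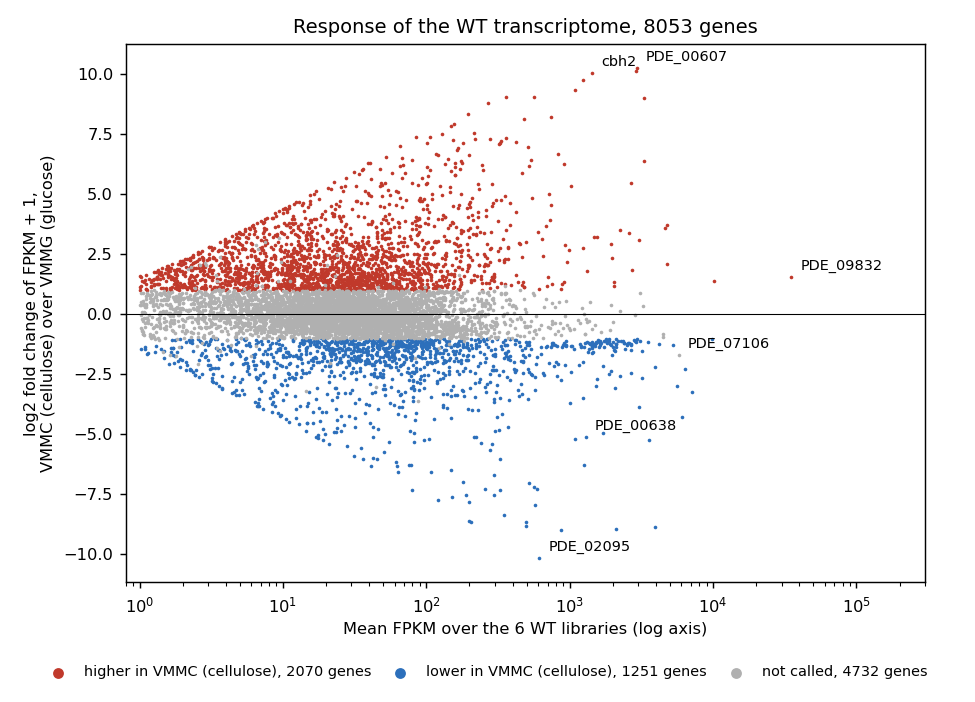
Each point is 1 of the 8053 genes tested, with its mean FPKM over the 6 WT libraries on a log axis and its log2 fold change in VMMC over VMMG. Red points are the 2070 genes called higher, blue points the 1251 called lower and grey points the 4732 not called, and the 3 largest rises (PDE_00607, PDE_03475 and cbh2) lie more than 10 log2 units above 0.

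Of the 13 cellulase genes that the study names, 12 were tested. Of these 9 rose in VMMC, 2 fell and 1 was not called, beside 25.7% higher and 15.5% lower of all genes. The median log2 fold change was 4.98, beside 0.13 for all genes tested. The summed level of the 13 cellulase genes was 7503, 8556 and 7109 FPKM in VMMC, against 778, 693 and 294 FPKM in VMMG. The rise was carried by the cellobiohydrolases and by a group of endoglucanases, and it was not shared by all members of a class.

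The cellobiohydrolase gene cbh1 (PDE_07945) had 2588, 2568 and 2258 FPKM in VMMC, against 1.43, 3.79 and 1.00 FPKM in VMMG. Its log2 fold change was 9.76 ± 0.31 (SE, n = 3 each, adjusted p = 8.51e-07). The second cellobiohydrolase gene, cbh2 (PDE_07124), had 2602, 3413 and 2623 FPKM in VMMC, against 0.97, 4.75 and 0.67 FPKM in VMMG (log2 fold change 10.07 ± 0.45, adjusted p = 3.1e-06). Both genes were thus at the level of rare transcripts in every VMMG library and among the most abundant transcripts in every VMMC library. Replicate 2 in VMMG had the highest residual level of both. Another gene, PDE_05445, whose best match is a cellobiohydrolase A, had 112, 122 and 111 FPKM in VMMC, against 1.00, 0.76 and 1.03 FPKM in VMMG (log2 fold change 5.91 ± 0.10, adjusted p = 1.57e-07).

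Among the endoglucanase genes, cel5B (PDE_09226) showed the largest rise, with 1076, 1206 and 1072 FPKM in VMMC against 1.11, 1.61 and 0.70 FPKM in VMMG (log2 fold change 9.05 ± 0.16). The level of eg1 (PDE_07929) was 537, 515 and 422 FPKM in VMMC and 7.40, 6.18 and 5.93 FPKM in VMMG (log2 fold change 6.03 ± 0.13). That of eg5 (PDE_07928) was 279, 343 and 295 FPKM in VMMC and 1.20, 1.08 and 0.65 FPKM in VMMG (log2 fold change 7.28 ± 0.14). In all 3 genes the replicates of a medium lay close together and far from those of the other medium. The gene cel5C (PDE_09969) rose by 4.06 ± 0.22 on the log2 scale, and eg2 (PDE_02093) by 2.38 ± 0.18, the second at a low level of 6.8, 6.93 and 7.63 FPKM in VMMC. A smaller rise was found for cel12A (PDE_06439), with 17.6, 17.8 and 11.4 FPKM in VMMC against 7.69, 6.68 and 4.49 FPKM in VMMG (log2 fold change 1.19 ± 0.23). It fell just under the fold threshold, at 1.00, when replicate 3 in VMMG was left out.

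Members of the same families went the other way. The endoglucanase gene cel5E (PDE_03711) had 29.9, 23.2 and 20.01 FPKM in VMMC, against 587, 527 and 197 FPKM in VMMG (log2 fold change −3.98 ± 0.41, adjusted p = 0.000142). It was the most abundant of the 13 cellulase transcripts in every VMMG library. The gene cel12B (PDE_02886) had 8.83, 10.6 and 7.59 FPKM in VMMC, against 122, 99.4 and 48.6 FPKM in VMMG (log2 fold change −3.10 ± 0.33, adjusted p = 0.000165). Within the genes named cel5 and within those named cel12, some rose and some fell. For PDE_09041 the groups overlapped, with 25.2, 32.03 and 31.9 FPKM in VMMC against 29.5, 24.2 and 22.8 FPKM in VMMG (log2 fold change 0.21 ± 0.14, adjusted p = 0.217). The gene cel5D (PDE_05193) was below the filter, with 0.93, 1.00 and 1.53 FPKM in VMMC against 0.26, 0.17 and 0.09 FPKM in VMMG.

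**Figure D2:**
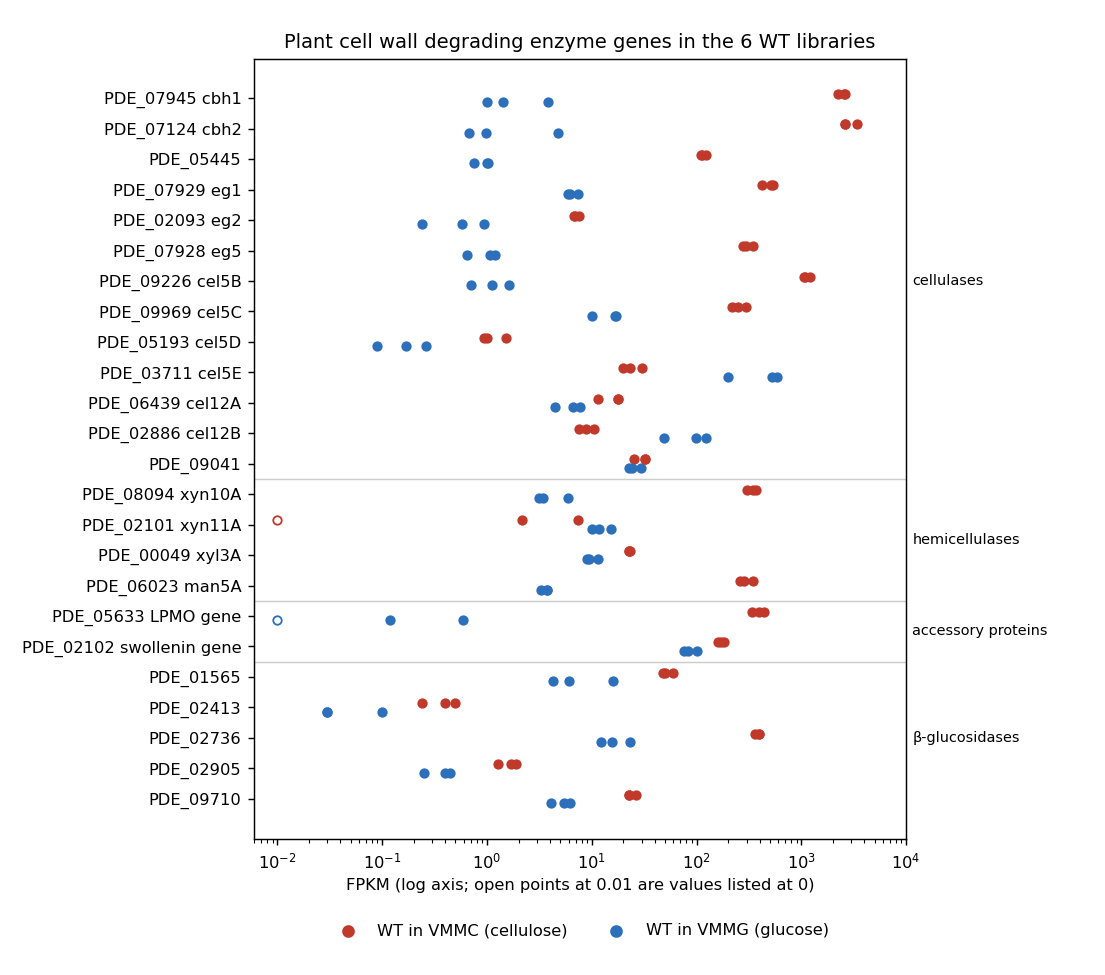
Transcription levels in FPKM, on a log axis, of the cellulase, hemicellulase, accessory protein and β-glucosidase genes, with 1 point for each of the 3 WT libraries in VMMC (red) and the 3 in VMMG (blue), and open points for values listed at 0. The red points of cbh1 and cbh2 lie between 2258 and 3413 FPKM and their blue points under 5 FPKM, whereas cel5E, cel12B and xyn11A have their red points left of the blue ones.

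Among the 4 hemicellulase genes, 3 rose and 1 fell, beside 25.7% higher and 15.5% lower of all genes. The xylanase gene xyn10A (PDE_08094) had 343, 373 and 306 FPKM in VMMC, against 3.16, 3.46 and 5.95 FPKM in VMMG (log2 fold change 6.07 ± 0.21, adjusted p = 1.04e-06). The mannanase gene man5A (PDE_06023) had 261, 344 and 281 FPKM in VMMC, against 3.31, 3.76 and 3.77 FPKM in VMMG (log2 fold change 6.0 ± 0.13). Both were thus raised by about as much as eg1. The gene xyl3A (PDE_00049), whose best match is an exo-β-xylosidase, had 22.6, 22.5 and 23.4 FPKM in VMMC, against 9.33, 8.95 and 11.5 FPKM in VMMG (log2 fold change 1.13 ± 0.11), and it was just under the fold threshold, at 0.98, after median-ratio scaling.

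The second xylanase gene, xyn11A (PDE_02101), had 7.43, 2.18 and 0 FPKM in VMMC, against 11.8, 15.2 and 10.08 FPKM in VMMG. Every VMMC library was below every VMMG library, at low levels and with a wide spread in VMMC. Its log2 fold change of −2.14 ± 0.71 (adjusted p = 0.0294) passed the test, but not without replicate 2 in VMMC (adjusted p = 0.0717), replicate 1 in VMMG (0.0548) or replicate 2 in VMMG (0.0825), nor at a pseudocount of 0.1 (0.0774). The neighbouring locus PDE_02102 codes for the swollenin, a protein that loosens cellulose without cutting it. It had 182, 171 and 160 FPKM in VMMC, against 101, 83.2 and 76.8 FPKM in VMMG, and its log2 fold change of 0.98 ± 0.13 was just under the fold threshold (adjusted p = 0.000414). The groups did not overlap. It was called higher when replicate 3 in VMMC or replicate 1 in VMMG was left out, and under scaling to the same FPKM sum.

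The LPMO gene PDE_05633 was near or at 0 in VMMG, with 442, 340 and 399 FPKM in VMMC against 0.12, 0.59 and 0 FPKM in VMMG (log2 fold change 8.34 ± 0.19, adjusted p = 3.52e-07). Of 5 genes whose best matches are β-glucosidases, 3 were tested and all 3 rose, beside 25.7% higher of all genes. PDE_02736 had 363, 397 and 391 FPKM in VMMC, against 12.3, 15.5 and 22.98 FPKM in VMMG (log2 fold change 4.47 ± 0.21). Its levels were below those of cbh1 and cbh2 in every VMMC library and above them in every VMMG library. The rises of PDE_01565 and PDE_09710 were 2.63 ± 0.40 and 2.01 ± 0.15 on the log2 scale.

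Other glycosidases also rose, 7 of 8 with a median log2 fold change of 2.61, beside 25.7% higher of all genes. Among the 7 whose mean reached 1 FPKM in both media, 6 rose. PDE_08139, best matched to a glucan 1,3-β-glucosidase and carrying the annotation of polygalacturonase activity, had 749, 1136 and 1159 FPKM in VMMC, against 5.65, 7.56 and 7.98 FPKM in VMMG (log2 fold change 6.96 ± 0.20). For PDE_05998, best matched to a β-mannosidase, the level was 166, 184 and 168 FPKM in VMMC and 3.08, 3.37 and 3 FPKM in VMMG (log2 fold change 5.39 ± 0.09). The genes matched to an endoglucanase C (PDE_09267) and an α-mannosidase (PDE_01959) rose by 2.77 and 2.73 on the log2 scale.

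Lists of Gene Ontology terms extended this to other members. The study chose these terms from the comparison of Δfbx23 with the WT in VMMC, which uses the same 3 WT libraries, so the lists are not independent evidence of a direction. Of 24 cellulose binding genes tested, 18 rose and 3 fell (median log2 fold change 3.18), and of 18 genes of cellulose catabolism 17 rose and none fell (median 3.55). Among the xylan catabolism genes 14 of 21 rose and 4 fell (median 1.93), and among the polygalacturonases, which cut pectin, 9 of 13 rose and 2 fell (median 2.39). Of all genes tested 25.7% rose and 15.5% fell. The shares that fell in the cellulose binding, xylan catabolism and polygalacturonase lists were thus near that of all genes. The xylanase PDE_04478 had 291, 364 and 279 FPKM in VMMC, against 3.22, 4.55 and 2.76 FPKM in VMMG (log2 fold change 6.12 ± 0.18), close to xyn10A in both media. For the polygalacturonase PDE_09285 the levels were 376, 525 and 556 FPKM in VMMC and 4.15, 5.25 and 7.45 FPKM in VMMG (log2 fold change 6.21 ± 0.22). Some members of each list passed the filter only through the medium where they are high. Among members whose mean reached 1 FPKM in both media, 14 of 20 rose in the cellulose binding list, 12 of 13 in cellulose catabolism, 10 of 16 in xylan catabolism and 5 of 8 among the polygalacturonases, and 6 of 9 of the named cellulase genes did. Some of the falls rested on single libraries, whereas cel5E, the largest fall of the cellulose binding list, was called lower under every alternative. Without replicate 1 in VMMG 1 cellulose binding and 1 xylan catabolism gene were called lower, and without replicate 2 in VMMG 1 and 2.

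Sugar transporters moved in both directions, and more of them rose. Of 42 carbohydrate transport genes tested, 23 rose and 8 fell (median log2 fold change 1.31), beside 25.7% higher and 15.5% lower of all genes. The share that fell was thus near that of all genes. Among the 36 whose mean reached 1 FPKM in both media, 18 rose and 7 fell. The largest rise was that of PDE_03475, with 5521, 6024 and 5935 FPKM in VMMC against 5.37, 8.75 and 1.26 FPKM in VMMG (log2 fold change 10.13 ± 0.49, adjusted p = 4.35e-06). This was one of the 10 highest transcripts in VMMC, above cbh1 and cbh2. PDE_03313 had 1331, 1439 and 1695 FPKM in VMMC, against 3.20, 6.52 and 2.75 FPKM in VMMG (log2 fold change 8.24 ± 0.26), and PDE_03571 rose by 7.52 ± 0.18. PDE_09395, best matched to the lactose permease of the yeast Kluyveromyces lactis, had 91.0, 88.6 and 93.3 FPKM in VMMC, against 7.96, 7.74 and 5.69 FPKM in VMMG (log2 fold change 3.51 ± 0.13).

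The transporter gene PDE_03140 went the other way, with 4.87, 4.43 and 4.55 FPKM in VMMC against 636, 611 and 513 FPKM in VMMG (log2 fold change −6.70 ± 0.11, adjusted p = 1.45e-07). No VMMC library of this gene came near a VMMG library. Of 28 amino acid transport genes 10 rose and 9 fell (median 0.39), where 25.7% of all genes rose and 15.5% fell. PDE_00845 had 571, 539 and 565 FPKM in VMMC, against 9.94, 8.89 and 19.3 FPKM in VMMG (log2 fold change 5.43 ± 0.26). PDE_04432 and PDE_04811 rose by 4.76 and 4.83 on the log2 scale. Of 7 sodium transport genes 4 rose and 1 fell, beside the same shares of all genes. PDE_04634, the largest rise among these, had 248, 315 and 333 FPKM in VMMC, against 33.6, 25.1 and 14.2 FPKM in VMMG. Of 23 oxygenases that act on single donors, a class that includes enzymes opening aromatic rings, 10 rose and 2 fell, with PDE_08904 at 250, 261 and 285 FPKM in VMMC against 3.90, 3.21 and 0.92 FPKM in VMMG (log2 fold change 6.29 ± 0.34).

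The following lists were taken, by best match, from the proteins in the study's table of tandem affinity purification, so each holds only a part of its pathway. Of 11 genes of central carbon metabolism tested, 5 fell and 1 rose (median log2 fold change −0.98). Of all genes tested 15.5% fell and 25.7% rose. Among the 10 central carbon genes whose mean reached 1 FPKM in both media, 4 fell and 1 rose. PDE_00638, best matched to a phosphoketolase, which splits sugar phosphates into acetyl phosphate and a smaller sugar phosphate, had 76.7, 68.4 and 66.9 FPKM in VMMC, against 2601, 2762 and 2161 FPKM in VMMG. Its log2 fold change was −5.12 ± 0.13 (adjusted p = 4.25e-07). PDE_02440, best matched to the α subunit of pyruvate dehydrogenase E1, which feeds pyruvate into the citric acid cycle, had 130, 104 and 99.5 FPKM in VMMC, against 581, 574 and 565 FPKM in VMMG (log2 fold change −2.37 ± 0.12). Both had tight replicates in each medium. PDE_06450, best matched to a fumarate reductase, went up, with 536, 629 and 606 FPKM in VMMC against 28.99, 34.1 and 58.6 FPKM in VMMG (log2 fold change 3.89 ± 0.25).

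PDE_01335, a phosphoglycerate mutase family gene whose promoter the study used to drive a transgene, had 201, 157 and 173 FPKM in VMMC, against 1960, 881 and 522 FPKM in VMMG (log2 fold change −2.45 ± 0.45, adjusted p = 0.00221). The 3 VMMG libraries were spread widely, and all lay above the VMMC libraries. Among the most abundant transcripts of VMMG, PDE_07008, best matched to a mitochondrial enzyme of thiazole synthesis in the making of thiamine, had 593, 556 and 603 FPKM in VMMC, against 10309, 12603 and 11496 FPKM in VMMG (log2 fold change −4.29 ± 0.15, adjusted p = 1.07e-06).

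All 15 cytosolic ribosomal protein genes fell, by a narrow range of 1.11 to 1.54 on the log2 scale (median −1.31), beside 15.5% of all genes called lower. PDE_02693, best matched to 40S protein S26E, had 1856, 1520 and 1464 FPKM in VMMC, against 3875, 4051 and 6427 FPKM in VMMG (log2 fold change −1.54 ± 0.24, adjusted p = 0.00101). For PDE_05774, best matched to 60S protein L13, the levels were 1555, 1272 and 1048 FPKM in VMMC and 2803, 3362 and 4499 FPKM in VMMG (log2 fold change −1.45 ± 0.23). In each of the 15 genes replicate 3 in VMMG was the highest of the 6 libraries. Without it 11 of the 15 were called lower (median −1.10), and 12 were after scaling to the same FPKM sum, and none when limma tested against a 2-fold change.

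Other genes of protein synthesis and turnover gave mixed results. Of 5 mitochondrial ribosomal protein genes 4 fell (median −1.19), and of 5 tRNA synthetase genes 3 fell (median −1.08), beside 15.5% of all genes. These counts were 2 and 0 after scaling to the same FPKM sum, and 1 tRNA synthetase gene was called without replicate 3 in VMMG. None of 11 ribosome biogenesis genes (median −0.19) and none of 3 proteasome genes (median −0.45) was called, where 41.2% of all genes were. PDE_04970, best matched to nucleolar protein 56, which takes part in the assembly of small nucleolar particles, had 76.4, 68.2 and 71.2 FPKM in VMMC, against 103, 113 and 176 FPKM in VMMG (log2 fold change −0.82 ± 0.20). Of 21 genes of DNA replication and repair 1 was called lower (median −0.03), beside 15.5% of all genes. Of 11 genes of the secretory pathway, through which the enzymes leave the cell, 2 rose and 3 fell (median −0.27), beside 25.7% higher and 15.5% lower of all genes. None of the 3 falls was called after scaling to the same FPKM sum, and 1 was without replicate 2 in VMMG. The 2 that rose were matched to mannosyltransferases, PDE_02250 by 3.0 and PDE_08799 by 2.42 on the log2 scale. The 3 that fell include PDE_03827 and PDE_00683, matched to coatomer subunits, which coat transport vesicles, at −1.15 and −1.11 (−0.95 and −0.91 after that scaling).

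**Figure D3:**
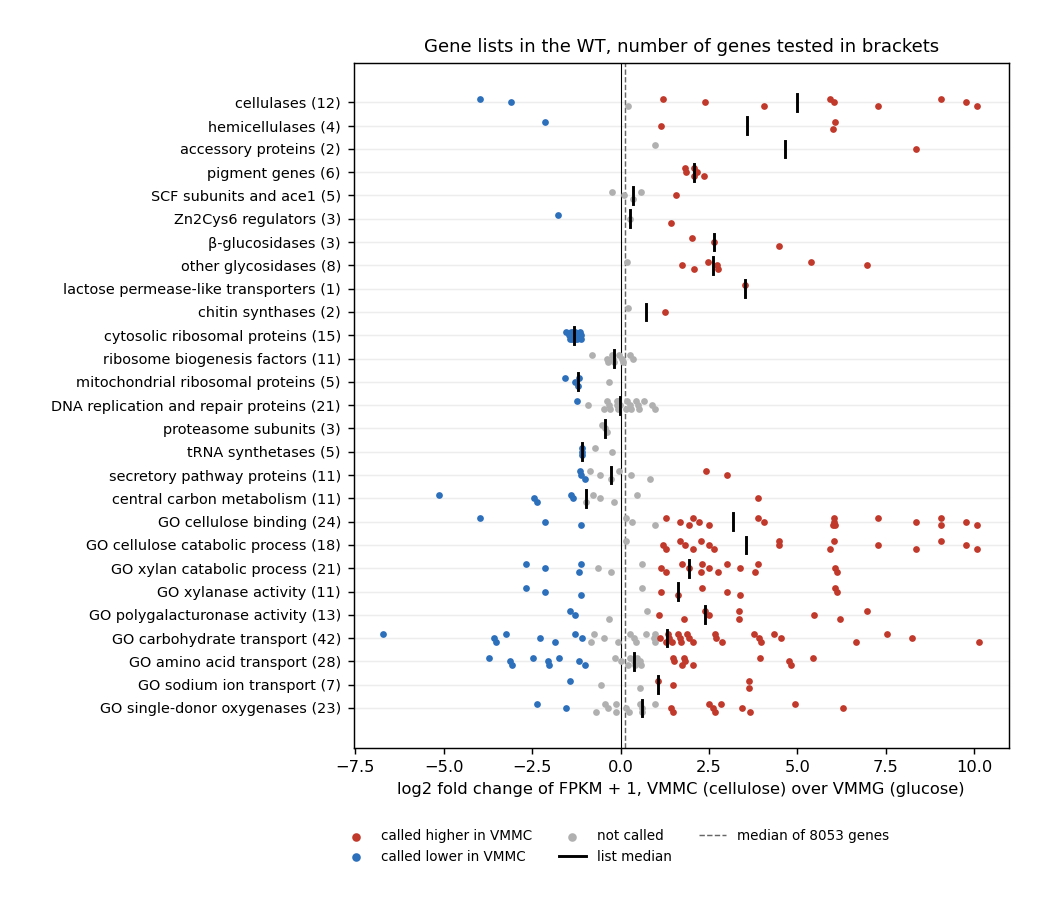
Log2 fold changes in VMMC over VMMG of the genes of each list, with 1 point a gene, red if called higher, blue if called lower and grey if not called, a black bar at the median of each list and a dashed line at 0.13, the median of all 8053 genes. The medians of the cellulose lists lie between 3.18 and 4.98 and that of the cytosolic ribosomal proteins at −1.31, with all 15 of its points on the lower side.

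The largest rise of all was that of PDE_00607, with 5402, 6399 and 5722 FPKM in VMMC against 2.17, 10.02 and 2.12 FPKM in VMMG (log2 fold change 10.25 ± 0.48, adjusted p = 3.61e-06). It has no name in the sources used here. Among the 10 largest rises, 5 are cellulose genes already described or annotated to cellulose (cbh2, cbh1, cel5B, PDE_05633 and PDE_01261) and 1 is the transporter PDE_03475. PDE_01261, annotated to cellulase activity and cellulose binding, had 709, 792 and 644 FPKM in VMMC, against 0.15, 1.08 and 0 FPKM in VMMG. The gene of a hydrolase of O-glycosyl compounds, PDE_08122, had 4435, 7445 and 7998 FPKM in VMMC, against 8.97, 19.5 and 8.28 FPKM in VMMG (log2 fold change 9.02 ± 0.36). Its levels in VMMC were above those of cbh1 and cbh2 in each library. The other 2 were PDE_06899, with 1994, 2158 and 2334 FPKM in VMMC against 3.20, 5.02 and 0.41 FPKM in VMMG, and PDE_06609, with 498, 520 and 584 FPKM in VMMC against 0.15, 0.44 and 0 FPKM in VMMG.

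Among the 10 largest falls few genes are annotated. PDE_02095 was listed at 0 in all 3 VMMC libraries and had 835, 902 and 1941 FPKM in VMMG (adjusted p = 7.61e-07). PDE_01929 was likewise listed at 0 in VMMC, with 501, 352 and 380 FPKM in VMMG, and so was PDE_07282, best matched to a glutathione S-transferase of the omega class, with 452, 443 and 290 FPKM in VMMG. An exact 0 can be a failed estimate in such a table, so no fold is given for these 3. The flavin binding gene PDE_00370 had 11.2, 0.39 and 1.32 FPKM in VMMC, against 1593, 1837 and 1787 FPKM in VMMG (log2 fold change −8.99 ± 0.74), and its neighbour PDE_00369 fell by 8.37. PDE_00023, best matched to an apoptosis-inducing factor homologue, had 1.98, 0.06 and 0.31 FPKM in VMMC, against 1503, 1262 and 196 FPKM in VMMG (log2 fold change −8.81 ± 0.81). Replicate 1 in VMMC kept the most of these transcripts. Of the 58 genes that fell by at least 5 on the log2 scale, that library was the highest of the 3 in VMMC for 41, against 1 and 3 for replicates 2 and 3.

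The most abundant transcript of both media was PDE_09832, annotated as extracellular, with 55257, 54630 and 47771 FPKM in VMMC against 16970, 17375 and 19256 FPKM in VMMG (log2 fold change 1.56 ± 0.26, adjusted p = 0.00137). It took 6.11% to 6.85% of all FPKM in VMMC and 1.88% to 2.02% in VMMG. The next locus, PDE_09831, was second in VMMC, with 15607, 13069 and 15817 FPKM in VMMC against 5023, 5841 and 5886 FPKM in VMMG. These 2 neighbours thus rose together by a similar factor. In VMMG, PDE_07106 was among the 10 highest by its mean and rested on 2 of the libraries, with 2214, 2144 and 1799 FPKM in VMMC against 16191, 10466 and 1719 FPKM in VMMG. It was not called (adjusted p = 0.09), and without replicate 3 in VMMG it was called lower at −2.67. PDE_02596, among the 10 highest in both media, fell by 1.02 ± 0.22 on the log2 scale. It was no longer called without replicate 3 of either medium, nor after scaling to the same FPKM sum (−0.82). The same held when limma tested against a 2-fold change.

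Of the genes of the ubiquitin ligase and its proposed target, 5 were tested and 1, skp1, was called, beside 41.2% of all genes. fbx23 itself (PDE_08467) had 58.9, 66.8 and 60.2 FPKM in VMMC, against 76.8, 73.0 and 70.1 FPKM in VMMG (log2 fold change −0.24 ± 0.09, adjusted p = 0.0515). In ace1 (PDE_01988), the groups overlapped, with 121, 165 and 142 FPKM in VMMC against 170, 146 and 94.5 FPKM in VMMG (log2 fold change 0.09 ± 0.23, adjusted p = 0.75), and its sign turned under 4 alternatives. The cullin gene cul1 (PDE_00128) was at 0.57 ± 0.11 and the RING-box gene rbx1 (PDE_02289) at 0.36 ± 0.16. The adaptor gene skp1 (PDE_02249) rose, with 486, 394 and 462 FPKM in VMMC against 160, 146 and 144 FPKM in VMMG (log2 fold change 1.57 ± 0.12, adjusted p = 2.66e-05). The gene mub1 (PDE_05666) was below the filter.

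The 3 genes for regulators of the Zn2Cys6 class that the study names gave 3 different results at low levels. PDE_04678 rose, with 9.67, 8.93 and 9.32 FPKM in VMMC against 2.67, 2.81 and 3.15 FPKM in VMMG (log2 fold change 1.41 ± 0.11). PDE_09448 fell, with 4.66, 5.67 and 5.61 FPKM in VMMC against 26.99, 21.7 and 14.3 FPKM in VMMG (log2 fold change −1.76 ± 0.22). PDE_04990 was not called (log2 fold change 0.27 ± 0.18, adjusted p = 0.218).

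All 6 genes of conidial pigment synthesis rose by 1.81 to 2.35 on the log2 scale, beside 25.7% higher of all genes. The pigment genes mark conidiation, and they serve as the check for conidiating hyphae among the mycelia. The conidiation regulator brlA, which the study reports on, is not described here. The genes albA and abrB also lie in cluster 27, where 2 of 5 genes tested rose and 1 fell. They therefore count again among the cluster genes below. arpB (PDE_04495) was the most abundant, with 1673, 1511 and 1494 FPKM in VMMC against 251, 328 and 505 FPKM in VMMG (log2 fold change 2.16 ± 0.25, adjusted p = 0.000241). The polyketide synthase gene albA (PDE_09491) had 89.8, 74.7 and 70.2 FPKM in VMMC, against 13.1, 18.6 and 36.9 FPKM in VMMG (log2 fold change 1.85 ± 0.34, adjusted p = 0.00247). arpA (PDE_04496), with 286, 266 and 251 FPKM in VMMC against 33.9, 46.1 and 88.6 FPKM in VMMG, showed the largest rise of the 6, at 2.35 ± 0.32. The genes abrA (PDE_09453), abrB (PDE_09492) and aygA (PDE_09452) rose by 1.81, 2.07 and 2.08.

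The summed level of the 6 genes was 3260, 2888 and 2841 FPKM in VMMC, against 477, 644 and 1074 FPKM in VMMG, so none was at 0 in either medium and the groups did not overlap. Replicate 3 in VMMG was the highest of its group, and without it all 6 genes were still called (median 2.40). A larger share of conidiating hyphae and more transcript per hypha cannot be told apart in such bulk samples. The part of conidiation in the results for other genes was not tested.

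The study's 28 clusters of secondary metabolism are ranges of neighbouring loci built around a backbone enzyme, such as a polyketide synthase (PKS) or a nonribosomal peptide synthetase (NRPS). Of their 234 genes tested, 91 rose and 43 fell (median log2 fold change 0.49), beside 25.7% higher and 15.5% lower of all genes tested, and cluster 9 had no gene above the filter. The clusters did not move alike. In clusters 2, 13, 26 and 28 most genes tested rose, with 11 of 12, 3 of 3, 14 of 17 and 9 of 11. The same held for clusters 14 (3 of 4), 15 (8 of 11), 16 (6 of 11) and 17 (3 of 5). It held too for clusters 18 (6 of 10), 19 (3 of 5) and 22 (5 of 9). Some of these genes passed the filter only through the medium where they are high. Among genes whose mean reached 1 FPKM in both media, 75 of 202 cluster genes rose and 33 fell. Counted so, 1 of 2 rose in cluster 19 and 4 of 8 in cluster 22, no longer most of them. The count of cluster 26 rested on single libraries, with 7 called higher without replicate 1 in VMMC, 8 without replicate 3 in VMMC and 8 without replicate 2 in VMMG, at medians between 1.66 and 1.77. In clusters 4 and 12 most fell, with 7 of 11 and 2 of 2, and in cluster 1, with 27 genes tested, 8 fell and 2 rose. In cluster 1 the falls numbered 12 without replicate 1 in VMMG and 5 without replicate 3 in VMMG. None of the 10 genes of cluster 10 was called.

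In cluster 26 the PKS gene PDE_09237 had 38.02, 40.9 and 39.5 FPKM in VMMC, against 15.5, 4.73 and 2.73 FPKM in VMMG (log2 fold change 2.52 ± 0.50, adjusted p = 0.00337). PDE_09235 of the same cluster had 88.3, 80.7 and 72.4 FPKM in VMMC, against 21.2, 6.27 and 2.87 FPKM in VMMG. Replicate 1 in VMMG was the highest of its group in both, and the VMMC libraries stood well above it. In cluster 28 the PKS gene PDE_10006 had 19.7, 16.5 and 16.9 FPKM in VMMC, against 2.53, 3.5 and 7.68 FPKM in VMMG (log2 fold change 1.85 ± 0.32). In cluster 2 the dimethylallyl tryptophan synthase gene PDE_01066 had 283, 266 and 272 FPKM in VMMC, against 45.5, 65.8 and 128 FPKM in VMMG (log2 fold change 1.90 ± 0.34), and the NRPS gene PDE_01071 rose by 1.99 ± 0.27. In these 2 clusters replicate 3 in VMMG was the highest of its group, as for the pigment genes.

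Cluster 12 gave the largest fall of a backbone gene. Its NRPS gene PDE_03416 had 1.04, 1.00 and 1.14 FPKM in VMMC, against 88.8, 81.5 and 18.6 FPKM in VMMG (log2 fold change −4.67 ± 0.56, adjusted p = 0.00028), and PDE_03415 fell by 6.01. In cluster 4, PDE_01194 had 14.4, 0.75 and 2.09 FPKM in VMMC, against 679, 1166 and 1558 FPKM in VMMG (log2 fold change −7.94 ± 0.78), while the backbone gene was below the filter. The NRPS gene PDE_00789 of cluster 1 had 11.1, 10.99 and 10.9 FPKM in VMMC, against 27.5, 32.5 and 39.0 FPKM in VMMG (log2 fold change −1.49 ± 0.14). Cluster 5 shows how far 1 library can decide: 1 of 9 genes was called lower, against 7 of 9 without replicate 3 in VMMG. PDE_01216, PDE_01214 and PDE_01218 are among those gained, lower by 2.64, 1.88 and 1.97.

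Within some clusters neighbours went apart. In cluster 8, PDE_02134 had 0.55, 0 and 0.24 FPKM in VMMC, against 42.6, 50.9 and 73.2 FPKM in VMMG (log2 fold change −5.47 ± 0.24), whereas PDE_02140 rose by 3.21 ± 0.48 and the PKS gene PDE_02141 by 1.91 ± 0.32. Cluster 16 held the largest rise of a cluster gene, PDE_04266, with 542, 547 and 592 FPKM in VMMC against 17.3, 21.02 and 28.3 FPKM in VMMG (log2 fold change 4.62 ± 0.17). Cluster 15 followed with PDE_04012, at 42.0, 41.3 and 44.5 FPKM in VMMC against 0.50, 1.00 and 1.31 FPKM in VMMG.

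**Figure D4:**
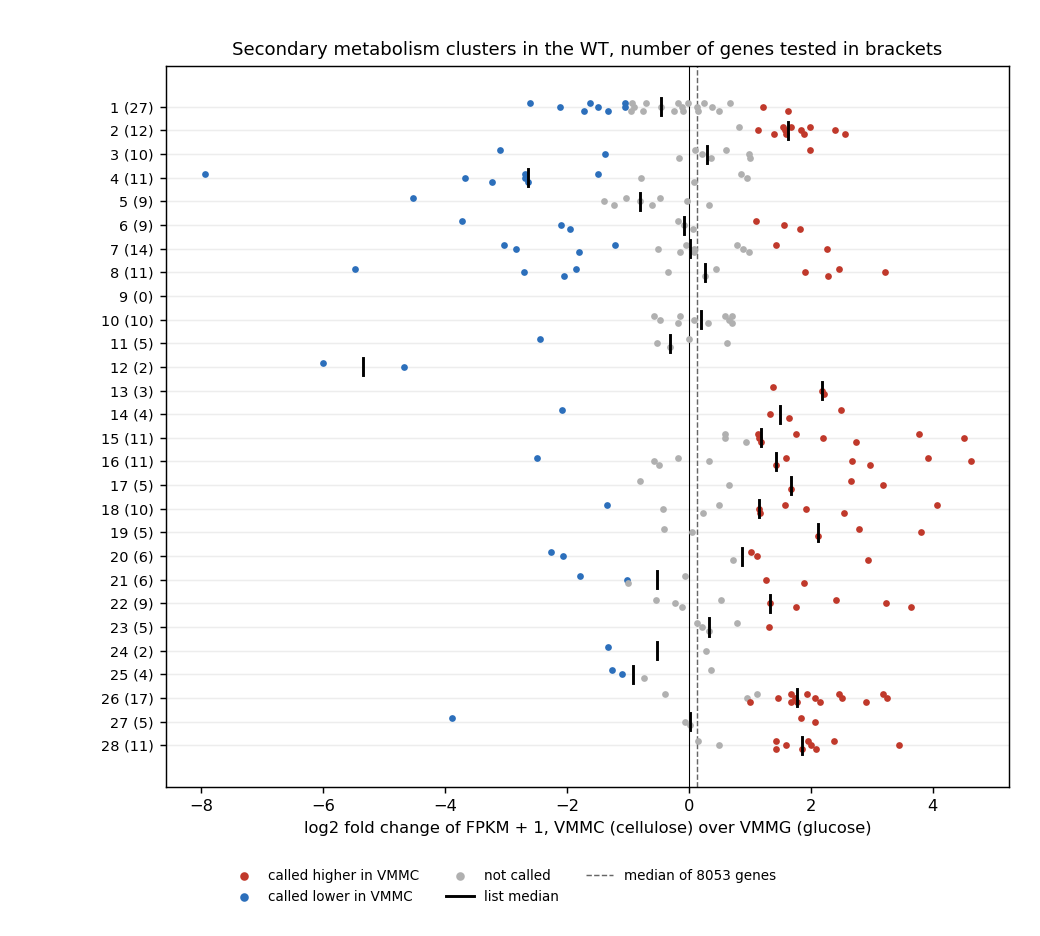
Log2 fold changes in VMMC over VMMG of the genes of the 28 clusters, with 1 point a gene, red if called higher, blue if called lower and grey if not called, a black bar at the median of each cluster and a dashed line at 0.13, the median of all genes. All points of clusters 2, 13, 15, 23 and 28 lie above 0, and both points of cluster 12 below it. Most points of cluster 26 lie above 0 and most of cluster 4 below it. Clusters 6, 8 and 20 are among those with genes called in both directions.

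The deleted gene itself, fbx23 (PDE_08467), was listed at 0 in all 6 libraries of Δfbx23. In Refbx23 it had 58.5, 67.0 and 56.9 FPKM in cellulose medium and 65.8, 64.4 and 74.9 FPKM in glucose medium, levels like those of the WT given above. The contrast of the media was fitted in the libraries of each strain, which share no sample with those of the WT. Fewer genes were called in these strains than in the WT, with 1654 higher (20.9%) and 941 lower (11.9%) of 7911 tested in Δfbx23, 1087 higher (13.7%) and 611 lower (7.68%) of 7958 in Refbx23, and 2070 higher and 1251 lower in the WT. Of the 2070 genes that rose in the WT, 1949 were tested in Δfbx23, where 1219 rose and 16 fell, and 1988 in Refbx23, where 827 rose and 88 fell. Their median log2 fold change was 1.30 in Δfbx23, 0.82 in Refbx23 and 1.92 in the WT. Of the 1251 that fell in the WT, 1224 were tested in Δfbx23, where 697 fell and 58 rose, and 1204 in Refbx23, where 341 fell and 48 rose. Since these genes passed a threshold in the WT, a smaller median in the other strains is no measure of a weaker response.

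The difference of the responses was therefore tested by itself, over the 12 libraries of 2 strains. The response of Δfbx23 was higher than that of the WT in 771 genes (9.56% of 8062) and lower in 870 (10.8%). That of Refbx23 was higher than in the WT in 982 genes (12.2% of 8072) and lower in 1353 (16.8%). Both strains thus differed from the WT in their response at many genes, in both directions.

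For both named cellobiohydrolase genes the response of the WT lay between those of the other strains. The log2 fold change of cbh1 (PDE_07945) was 11.27 in Δfbx23, 8.08 in Refbx23 and 9.76 in the WT, and both differences from the WT were called (1.51 and −1.67). For cbh2 (PDE_07124) it was 11.67 in Δfbx23, 8.51 in Refbx23 and 10.07 in the WT. cel12A (PDE_06439), which rose little in the WT, was at 5.52 in Δfbx23 and 1.05 in Refbx23, and its difference of 4.34 between Δfbx23 and the WT was called. PDE_05445, by contrast, responded less in Δfbx23 (3.36) and Refbx23 (1.46) than in the WT (5.91). The gene xyn11A (PDE_02101) rose in both other strains, by 5.74 in Δfbx23 and 5.38 in Refbx23, and was at −2.14 in the WT. Its levels in cellulose medium were 610, 358 and 343 FPKM in Δfbx23, 48.0, 59.9 and 62.2 FPKM in Refbx23, and 7.43, 2.18 and 0 FPKM in the WT.

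The pigment genes differed in sign between strains. arpB (PDE_04495) had a log2 fold change of 7.43 in Δfbx23, −0.43 in Refbx23 and 2.16 in the WT, and aygA (PDE_09452) of 7.69, −0.68 and 2.08 in the same order. All 6 rose in Δfbx23, and in Refbx23 none rose and 2 (albA and abrB) fell. All 12 differences from the WT were called. The cluster 1 gene PDE_00803, which fell in the WT by 2.60, rose by 6.0 in Δfbx23.

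Some of the largest changes were far larger in the WT. Of the 106 genes that rose by at least 5 on the log2 scale in the WT, 89 were called higher in both other strains, 9 in Δfbx23 only, 2 in Refbx23 only and 6 in neither. A gene below the filter in a strain counts here as not called. Of the 6, PDE_08440, PDE_05036 and PDE_03478 were below the filter in both strains and so were not tested there. The transporter PDE_03475 had 3.74, 3.20 and 3.51 FPKM in Δfbx23, 8.91, 10.4 and 8.29 FPKM in Refbx23, and 5521, 6024 and 5935 FPKM in the WT, all in cellulose medium. It was called higher in Δfbx23 (log2 fold change 1.85) and not called in Refbx23 (0.59). The difference of its response from that of the WT was −8.28 in Δfbx23 and −9.54 in Refbx23. PDE_06899 was below the filter in Δfbx23 and not called in Refbx23 (0.65). It had at most 1.56 FPKM in Δfbx23 and at most 2.47 FPKM in Refbx23 in cellulose medium, against 1994, 2158 and 2334 FPKM in the WT. Thus 2 of the 10 largest rises of the WT were at most 10.4 FPKM in the strains derived from it. PDE_08440 was listed at 0 in all 12 libraries of the other strains, and had 116, 107 and 168 FPKM in the WT in VMMC and was listed at 0 in the WT in VMMG. PDE_00192 is among the 6 only through such zeros, with 227, 221 and 168 FPKM in VMMC against 0, 0 and 129 FPKM in VMMG in the WT, while all 12 libraries of the other strains were between 157 and 411 FPKM. PDE_08440 and PDE_00192 fall outside the rule for named genes. They were chosen after their values were seen, as were PDE_05036 and PDE_03478.

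Of the 58 genes that fell by at least 5 in the WT, 43 were called lower in both other strains and 3 in neither. Of these 3, PDE_06034 was called higher in both other strains, with log2 fold changes of 3.51 in Δfbx23, 2.04 in Refbx23 and −5.11 in the WT. PDE_03292 was called higher in Refbx23 (2.28), not called in Δfbx23 (0.34), and was at −6.57 in the WT. PDE_08540, listed at 0 in all 3 WT libraries in VMMC, was called in neither. For PDE_06034 and PDE_03292 both differences from the response of the WT were called. These 3 genes were likewise chosen after their values were seen. PDE_06802 was lower in VMMC in all 3 strains, but its level in cellulose medium was 1853, 2028 and 2012 FPKM in Δfbx23, 1843, 1862 and 2066 FPKM in Refbx23, and 48.5, 6.22 and 12.9 FPKM in the WT. The phosphoketolase gene PDE_00638 fell in all strains, with log2 fold changes of −6.09 in Δfbx23, −2.85 in Refbx23 and −5.12 in the WT. PDE_01335 did not fall in the other strains. Its level in cellulose medium was 1424, 1363 and 1522 FPKM in Δfbx23, 1390, 1272 and 1390 FPKM in Refbx23, and 201, 157 and 173 FPKM in the WT, and both differences of the response from the WT were called (3.31 and 3.96).

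**Figure D5:**
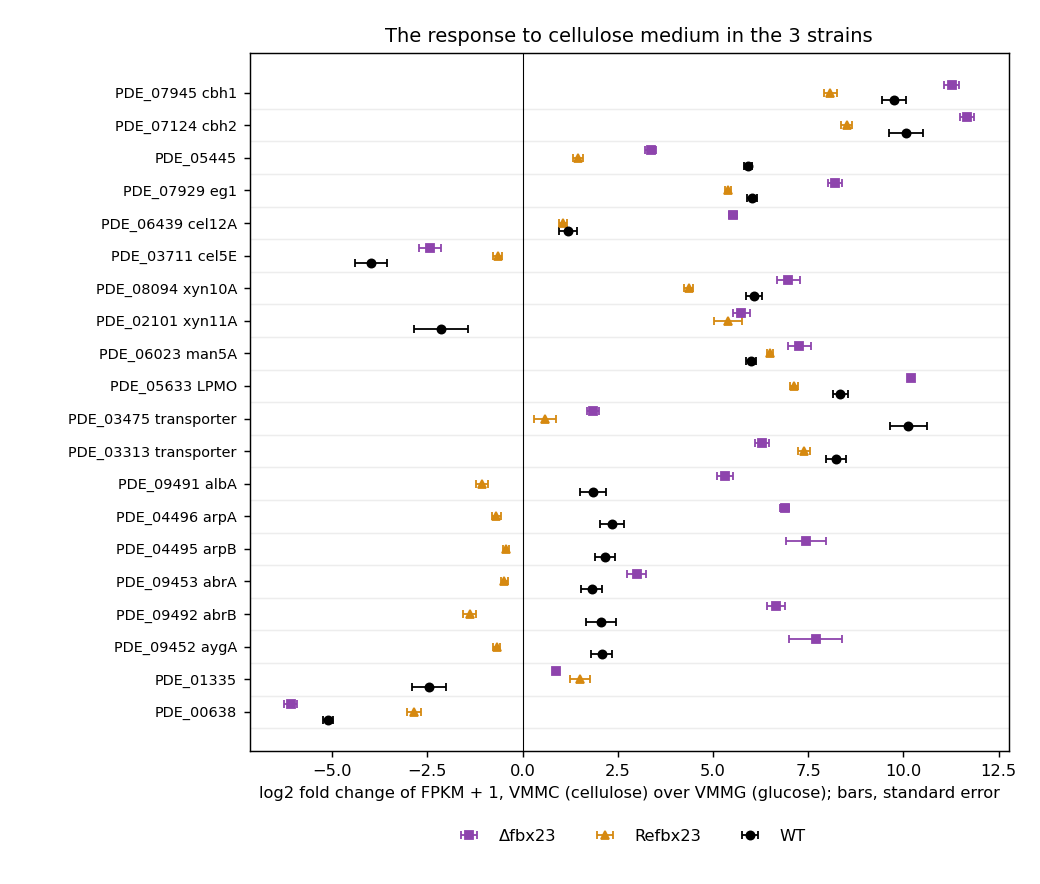
Log2 fold changes in VMMC over VMMG with their standard errors for 20 genes, as squares for Δfbx23, triangles for Refbx23 and circles for the WT, from 3 libraries in each medium. The pigment genes lie between 3.0 and 7.69 in Δfbx23, below 0 in Refbx23 and near 2 in the WT, and PDE_03475 is far to the right in the WT alone.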

How the data were processed

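RNA was measured in 18 libraries of P. oxalicum mycelia, of which the 6 WT libraries carry the main comparison. The authors mapped reads to the P. oxalicum genome and deposited FPKM per gene, with 2 decimals and no pooling of replicates. By the methods this was RNA-Seq on a BGISEQ machine, by the labels a tag-based protocol, and which holds could not be settled. The aligner and the build are not given in the sources used here. FPKM were used as deposited, and the table holds no read counts, so no counting interval could be given.

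The labels gave the strain and medium of each library. Each comparison was fitted with limma 3.58.1 in R 4.3.3, with an intensity trend, on log2(FPKM + 1), for genes whose mean in its libraries reached 1 FPKM. Called genes changed by 2-fold or more with an adjusted p (Benjamini-Hochberg) under 0.05. Moderated standard errors are given. The 2-sided exact permutation test of 3 against 3 libraries cannot go below 0.1 and was used only to see whether groups overlap. Differences of the response between strains were tested as interactions over 12 libraries. Lists were described by counts and medians with no test.

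Named genes were first genes that the study's text names, though not all of them, as brlA was left out. They were also the 10 largest rises and falls among called genes with groups that do not overlap, and the 10 highest means in each medium. Up to 4 members with the largest changes of each other list and the called backbone genes were added. Genes and lists were chosen with earlier results of these data known. Cluster ranges came from the study's cluster table, 3 of them read past a misprint. Names of unnamed genes are best matches or Gene Ontology terms of the study's tables, and no positions are given because the reference at hand covers another strain.

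Alternatives were other pseudocounts and filters, scaling of libraries, 1 fit of all 18 libraries, a replicate block, no trend, library weights, other thresholds, and leaving out each library. Only part of them were run for the other strains and for the differences between strains. The plots were drawn in matplotlib 3.10.9 with pandas 2.3.3 under Python 3.11.15.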

Additional observations from a re-analysis of the deposited data

Results flagged for a closer look

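The response to VMMC differed between a strain and the WT, by a test of the difference itself in limma, at 771 genes higher and 870 lower in Δfbx23 and at 982 higher and 1353 lower in Refbx23. The values below are the differences on the log2 scale, strain minus WT, for the genes that the study names and that were called. All share the WT libraries.

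In Δfbx23 the cellulase genes cbh1 (1.51), cbh2 (1.6), eg1 (2.17), eg2 (2.15), cel5B (1.52), cel5C (2.13), cel5D (2.60), cel5E (1.54), cel12A (4.34) and cel12B (1.52) responded more upward than in the WT, and PDE_05445 (−2.55) less. The response was also more upward for xyn11A (7.89), man5A (1.27), the LPMO gene PDE_05633 (1.85) and the swollenin gene PDE_02102 (2.69). For cel5E and cel12B this means a smaller fall. The gene cel5D was below the filter in the WT and entered this test only through its levels in Δfbx23. The scale of log2(FPKM + 1) understates its change in the WT, so its difference may be too large. The pigment genes followed, with albA at 3.47, arpA at 4.53, arpB at 5.27, abrA at 1.19, abrB at 4.59 and aygA at 5.62. PDE_01335 was at 3.31.

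In Refbx23 the response lay below that of the WT for cbh1 (−1.67), cbh2 (−1.56), PDE_05445 (−4.45), eg2 (−1.21), cel5C (−1.20), xyn10A (−1.71), xyl3A (−1.40) and PDE_05633 (−1.22). The response of xyl3A in Refbx23 was −0.26 and not called. The difference was upward for cel5E (3.32), cel12B (2.14), xyn11A (7.53) and PDE_02102 (1.33). The pigment genes were below the WT response, with albA at −2.93, arpA at −3.04, arpB at −2.60, abrA at −2.29, abrB at −3.46 and aygA at −2.76. Among the other genes, skp1 was at −1.04, PDE_04678 at −1.94, PDE_09448 at 1.16 and PDE_01335 at 3.96.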

How the results depend on the processing

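The counts of 2070 genes higher and 1251 lower in VMMC stayed within 1.5 times under every alternative but these. With no threshold on the fold change 3319 genes were higher and 2493 lower, and a test in limma against a 2-fold change gave 734 lower (and 1440 higher). Leaving out 1 library at a time gave 2013 to 2132 higher and 1208 to 1290 lower. Scaling moved the split: 62.3% of the called genes were higher with FPKM as deposited, 55.3% after median-ratio scaling (1846 higher, 1491 lower) and 70.3% after scaling to the same FPKM sum (2446 higher, 1031 lower). For Δfbx23, Refbx23 and the differences between strains only part of the alternatives were run. These were a pseudocount of 0.1, no filter, a filter of 5 FPKM, median-ratio scaling, the replicate block and leaving out each library. All counts were within 1.5 times there. Neither dropping the threshold nor the test against a 2-fold change was run for them.

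With a block for the replicate number 2078 genes were higher and 1254 lower. Deviations of same-numbered libraries correlated at 0.0171, −0.025 and −0.0481 across genes, and those of other pairs between −0.0418 and 0.0786. With 3 libraries in each medium this cannot tell whether same-numbered cultures were paired.

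Among the 229 named genes, 4155 values under alternatives kept direction and call, 78 lost the call, 51 gained it and 7 turned sign, none of these 7 in a called gene. For ace1 the PDE_01988 log2 fold change was −0.0737 after median-ratio scaling, −0.0143 with library weights, and between −0.157 and 0.262 when 1 library was left out, below 0 without replicate 2 in VMMC (−0.0223) or replicate 3 in VMMG. The PDE_09495 log2 fold change was 0.121 after scaling to the same FPKM sum, 0.0302 with library weights, and between −0.183 and 0.0407 when 1 library was left out, above 0 without replicate 1 in VMMC. The cause was not tested. Depth is unknown, so how far a value listed at 0 lies from detection cannot be said.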

Other observations

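Genes with large changes were found side by side. Read along the locus numbers, 8 runs of at least 4 neighbouring loci all rose by at least 2 on the log2 scale, and 3 such runs all fell. These runs were looked for after the values were seen, they have no test, and the positions behind the numbers were not checked. The longest had 5 genes.

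The run PDE_08904 to PDE_08908 rose by 2.83 to 6.29 and begins with the oxygenase gene PDE_08904. The run PDE_00007 to PDE_00011, with no name in the sources used here, rose by 3.41 to 7.30, and PDE_00008 in it had 406, 447 and 446 FPKM in VMMC against 1.75, 2.79 and 0.99 FPKM in VMMG. PDE_09098 to PDE_09101 rose by a narrow range of 4.57 to 5.0, led by PDE_09098 with 1477, 1213 and 1474 FPKM in VMMC against 58.5, 49.6 and 25.9 FPKM in VMMG. The endoglucanase gene cel5B (PDE_09226) opens the run PDE_09226 to PDE_09229, whose 3 other genes are the first of cluster 26.

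Among the falls, the run PDE_03413 to PDE_03417 fell by 4.67 to 7.61. It holds both loci of cluster 12 and reaches past the printed range on both sides. PDE_03417 in it had 1.38, 0.75 and 0.77 FPKM in VMMC, against 465, 445 and 220 FPKM in VMMG. In the run PDE_01479 to PDE_01482 the log2 fold change lay between −7.29 (PDE_01480) and −3.28 (PDE_01481), with PDE_01479 at 14.5, 3.99 and 4.05 FPKM in VMMC against 875, 997 and 1640 FPKM in VMMG.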
